A study of Mus musculus with 4 samples.

Results

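The PIWI proteins and the factors that build their small RNA guides were followed at the RNA level in mouse pachytene spermatocytes. The group held 10 genes of 55364 in the gene table, taken by symbol: the PIWI genes Piwil1, Piwil2 and Piwil4, the biogenesis genes Mov10l1, Pld6, Asz1, Gtsf1, Pnldc1 and Henmt1, and Mael. All 10 were found in the annotation of the mouse build GRCm38 (GENCODE M21). RNA sequencing covered 2 wild-type libraries (WT) and 2 libraries of the Ddx4 knock-in in the homozygous state (KK). Ddx4 is the gene of the germline RNA helicase also known as mouse vasa homolog. The series title describes the knock-in model as made by combinatorial tagging. The cells of both genotypes were separated from testis by a digestion in 2 steps followed by elutriation, and the labels name no other treatment. The sources used here do not give strain, age or the number of animals behind a library. The p-values therefore measure only the spread between these libraries, which may be technical.

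Piwi-interacting RNAs (piRNAs) are germline small RNAs that guide PIWI proteins to transposon and other transcripts. Long single-stranded precursors are brought to the processing machinery by the helicase MOV10L1, cut at the surface of mitochondria by the endonuclease PLD6, loaded onto a PIWI protein, trimmed at the 3′ end by PNLDC1 and methylated there by HENMT1. ASZ1 (GASZ) anchors this machinery in the intermitochondrial cement of the germ cell, GTSF1 is a small zinc finger partner of PIWI proteins, and MAEL is a germ granule protein needed for transposon silencing. In pachytene spermatocytes PIWIL1 (MIWI) and PIWIL2 (MILI) load the abundant pachytene piRNAs, whereas PIWIL4 (MIWI2) is the nuclear PIWI protein of fetal male germ cells. Transcription of many of these genes is driven in pachytene by MYBL1 (A-MYB), together with the basic helix-loop-helix factor TCFL5.

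The promoters of the members were searched for the E box CACGTG, a palindrome that many basic helix-loop-helix factors bind. The RefSeq promoter table of GRCm38.p6 held windows for 8 of the 10 members; Piwil2 and Pnldc1 had none. In the 250 bases before the RefSeq start, 4 of these 8 genes had a CACGTG, against 6.86% of the 27025 genes in the table. A gene was counted if any of its windows held it. Pld6 and Piwil4 had 2 windows each, and 1 of those of Pld6 held it. Among 18 other piRNA pathway genes with windows, from the list described below, 4 had it (22.2%). Of those, Ddx4 and Tdrd9 were lower in KK, Tdrd1 was higher and Fkbp6 did not pass. The 4 member promoters are printed because 3 of their genes, Piwil1, Pld6 and Mov10l1, were lower in KK. A link of the E box to the fold changes was not tested. The printed promoters run 5′ to 3′ on the strand of the gene, with the E box in capitals. RefSeq starts need not match the gene spans given below, which are those of GENCODE. The Piwil1 window lies inside its span, and the Mov10l1 and Mael windows cross the start of theirs.
Piwil1 promoter, chr5:128735996-128736245: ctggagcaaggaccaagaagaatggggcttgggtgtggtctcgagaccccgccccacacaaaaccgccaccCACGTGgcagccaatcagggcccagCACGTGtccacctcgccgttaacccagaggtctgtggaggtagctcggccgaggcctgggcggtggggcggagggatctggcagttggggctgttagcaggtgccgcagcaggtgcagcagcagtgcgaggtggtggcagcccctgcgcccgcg
Pld6 promoter, chr11:59787658-59787907: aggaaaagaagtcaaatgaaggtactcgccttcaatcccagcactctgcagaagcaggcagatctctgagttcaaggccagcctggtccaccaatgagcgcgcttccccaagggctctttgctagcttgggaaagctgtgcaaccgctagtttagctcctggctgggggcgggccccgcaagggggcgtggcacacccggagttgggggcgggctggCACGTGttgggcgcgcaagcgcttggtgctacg
Mov10l1 promoter, chr15:88982744-88982993: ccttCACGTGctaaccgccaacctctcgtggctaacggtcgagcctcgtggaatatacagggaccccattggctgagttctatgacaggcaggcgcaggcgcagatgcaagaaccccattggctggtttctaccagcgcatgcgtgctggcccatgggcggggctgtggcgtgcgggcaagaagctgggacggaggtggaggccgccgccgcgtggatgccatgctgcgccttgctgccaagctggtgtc
Mael promoter, chr1:166238745-166238994: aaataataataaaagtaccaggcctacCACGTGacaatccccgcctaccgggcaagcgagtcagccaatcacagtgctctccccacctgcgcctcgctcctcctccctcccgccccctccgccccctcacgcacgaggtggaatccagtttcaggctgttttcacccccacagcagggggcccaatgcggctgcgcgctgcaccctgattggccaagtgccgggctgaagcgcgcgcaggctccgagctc
Piwil1 carried 2 copies, which began 179 and 154 bases before the start. The Pld6 copy began 33 bases before the start, the Mov10l1 copy 246 and the Mael copy 223. Asz1, Gtsf1, Henmt1 and Piwil4 had no CACGTG in this window. The MYB core AACNG, searched on both strands (the other strand reads CNGTT), was found in 6 of the 8 genes, close to the 76.8% of all genes that hold it. By their letters, a match of CACGTG and a match of the MYB core cannot overlap. A match to these letters is a description of the sequence and not a measured binding site.

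Total expected counts ran from 17970207 to 19438570 per library. The targeted gene separated the genotypes: Ddx4 stood at 264.96 and 272.92 TPM (a level corrected for transcript length and library total) in WT and at 54.44 and 52.49 TPM in KK. The cells carried pachytene transcripts at high levels in every library, with 14612.2 to 15434.9 TPM summed over 10 pachytene markers. Most of that sum was Ldhc, at 9459.20 to 9748.47 TPM. The sum over 12 spermatid markers was larger, at 17206.6 to 19745.6 TPM, so these sums do not show how pure the fraction was. Differences were tested over all genes with edgeR's quasi-likelihood test on expected counts, and a gene was called at a Benjamini-Hochberg adjusted p under 0.05. Normalised counts are given as CPM after TMM scaling, which corrects for library total but not for length.

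Among the 9 members that could be tested, 3 fell in KK (Piwil1, Pld6 and Mov10l1), 1 rose (Gtsf1) and 5 did not pass. Over all 16571 genes tested, 21.7% were called lower and 22.0% higher. The 9 tested members all averaged 10 CPM or more, and among the 8378 genes at that level 36.9% were called lower and 20.6% higher. The 33.3% of members called lower thus lies near the share of comparably expressed genes. The median log2 fold change of the 9 members was -0.10, against -0.08 for genes of at least 10 CPM and 0.00331 for all genes tested. In CPM the 2 genotypes did not overlap for 7 of the 9 members, a separation that 70.8% of all tested genes also had. Among the 8378 genes of at least 10 CPM, 6675 had it, so the members were not unusual.

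The levels of the members spanned 4 orders of magnitude. In TPM, Mael was the highest in both genotypes, followed by Gtsf1, Piwil1 and Pld6. Henmt1, Piwil2, Mov10l1, Asz1, Pnldc1 and Piwil4 then followed in WT. In KK, Piwil2 and Henmt1 changed places. All neighbours in either order had library values that did not overlap. With 2 libraries a genotype, the gap between Henmt1 and Piwil2 in WT was little more than the spread. They stood there at 68.485 ± 0.120 and 63.65 ± 4.13 TPM (mean ± SD, n = 2 each). In KK they stood at 62.535 ± 3.43 and 67.36 ± 2.52 TPM, with nearest library values of 64.96 and 65.58 TPM. Neither gene was called, so their change of places is not established. The sum over the 10 members was 3033.28 and 2964.49 TPM in WT and 2978.01 and 2957.90 TPM in KK, so that the totals of the genotypes were much alike while single members moved.

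**Figure D1:**
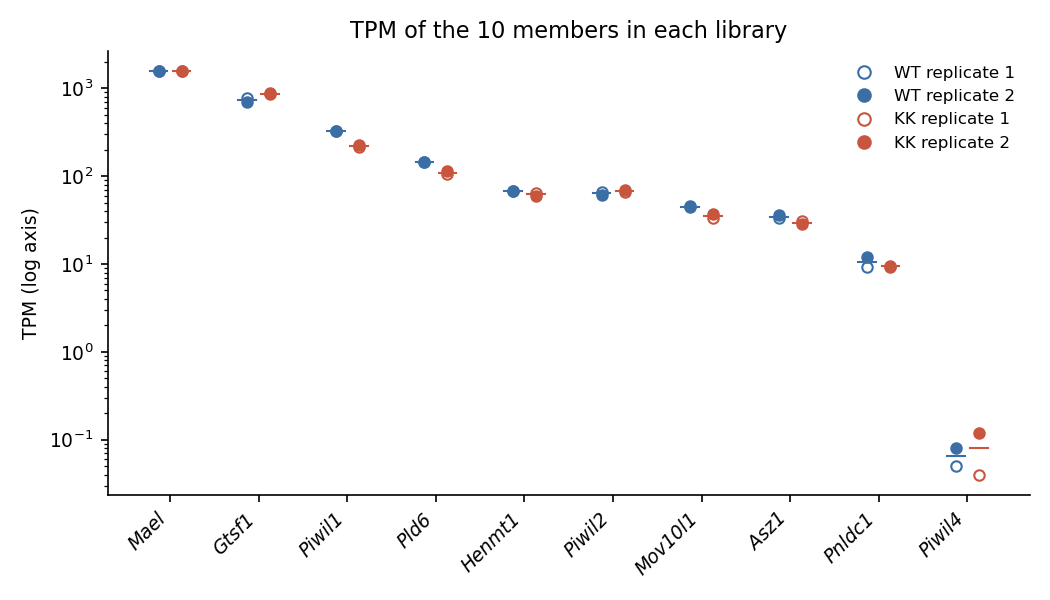
TPM of each member (log axis) in the 2 WT libraries (blue) and the 2 KK libraries (red), with short lines at the genotype means. Piwil1, Pld6 and Mov10l1 sit lower in KK, Gtsf1 sits higher, Mael is level at about 1565 TPM, and Piwil4 lies near 0.1 TPM.

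Piwil1, the gene of the main PIWI protein of pachytene spermatocytes, was the member with the strongest fall. Piwil1 (chromosome 5, 128702524 to 128755474, plus strand) stood at 327.68 and 330.37 TPM in WT and at 215.81 and 226.74 TPM in KK. Both KK libraries lay far below both WT libraries, and the gap was many times the spread within a genotype. In normalised counts Piwil1 went from 942 ± 2.53 to 629 ± 21.5 CPM (mean ± SD, n = 2 each), and its mean TPM fell by 32.7%. The log2 fold change was -0.58 ± 0.04 (SE), with an edgeR adjusted p of 1.4e-13. Among all genes ranked by TPM, Piwil1 moved from place 573 and 570 in WT to place 913 and 868 in KK. In RNA from a cell fraction, fewer cells that carry a transcript and less transcript per cell cannot be told apart.

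Piwil2, the gene of the PIWI protein that is present from spermatogonia to spermatids, was not called in either direction. Piwil2 (chromosome 14, 70372477 to 70429383, minus strand) had 66.57 and 60.73 TPM in WT and 65.58 and 69.14 TPM in KK, and the genotypes overlapped. In CPM Piwil2 did not overlap, with 233.05 and 218.06 in WT and 234.27 and 246.21 in KK. Its log2 fold change was 0.09 ± 0.04, with a 95% interval of 0.01 to 0.17 before any correction, and it missed the threshold in edgeR (adjusted p of 0.0704). Piwil2 did pass as higher in 4 of the 15 settings run (the main test and 14 alternatives), and its adjusted p ran from 0.000945 to 0.642 over them. Its direction was upward in all 15. Those 4 settings were scaling by library size alone, TMM factors from autosomal genes, a filter of at least 1 CPM and the fit without KK replicate 1 (adjusted p of 0.0273 by edgeR).

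Piwil4, the PIWI gene of fetal germ cells, was almost absent. Piwil4 (chromosome 9, 14696230 to 14740733, minus strand) had 2 and 2 expected counts in WT and 2 and 4 in KK, or 0.05, 0.08, 0.04 and 0.12 TPM. It was the 1 member that did not pass the expression filter. At this depth no difference could be measured, and no fold was formed.

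The balance between the PIWI transcripts differed between the genotypes within libraries, a measure that needs no scaling between libraries. The TPM ratio of Piwil1 to Piwil2 was 4.92 and 5.44 in WT and 3.29 and 3.28 in KK. Piwil1 made up 83.1% and 84.5% of the PIWI transcripts in WT and 76.7% and 76.6% in KK. Summed over Piwil1, Piwil2 and Piwil4, the PIWI transcripts stood at 394.30 and 391.18 TPM in WT and at 281.43 and 296.00 TPM in KK. The KK libraries had less PIWI message in all, with the difference in Piwil1 rather than Piwil2.

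**Figure D2:**
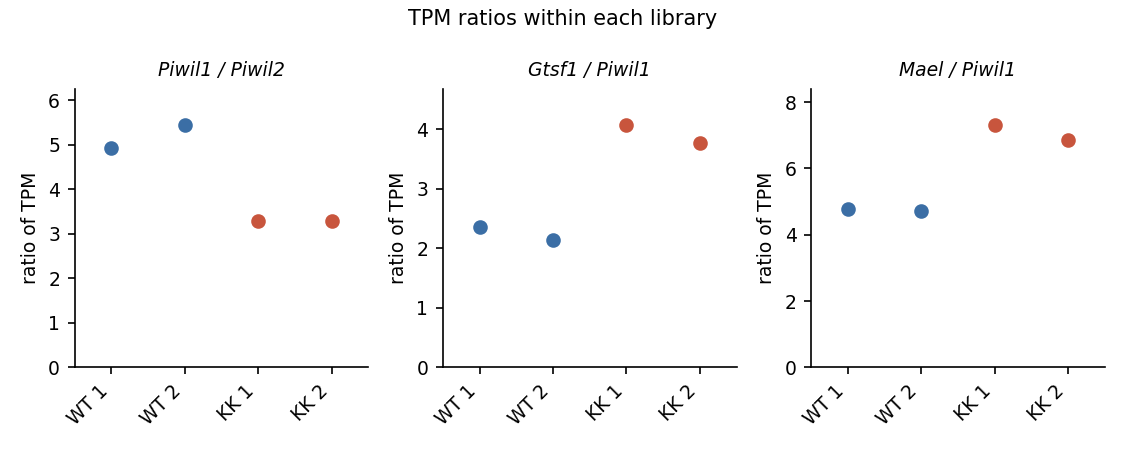
Ratios of TPM within each library (linear axes from 0) for 3 pairs of members, WT in blue and KK in red. The ratio of Piwil1 to Piwil2 is 4.92 and 5.44 in WT and 3.29 and 3.28 in KK, and the ratios of Gtsf1 and of Mael to Piwil1 are higher in both KK libraries than in either WT library.

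The 2 members that act at the start of processing fell together. Pld6 (chromosome 11, 59783897 to 59787645, minus strand), the gene of the mitochondrial nuclease that makes the 5′ ends of piRNAs, had 145.07 and 145.24 TPM in WT and 105.80 and 114.27 TPM in KK. The WT libraries were nearly identical, and both KK libraries lay clearly under them. Pld6 was 1.33-fold lower, with a log2 fold change of -0.41 ± 0.05 and an edgeR adjusted p of 1.8e-08.

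Mov10l1 (chromosome 15, 88982909 to 89055152, plus strand), the gene of the helicase that feeds precursors into processing, had 45.44 and 44.27 TPM in WT. It had 33.25 and 37.05 TPM in KK, again with no overlap. Mov10l1 was 1.29-fold lower, with a log2 fold change of -0.36 ± 0.05 and an edgeR adjusted p of 6.5e-07. The falls of Pld6 and Mov10l1 were smaller than that of Piwil1: the 95% intervals of their log2 fold changes, -0.50 to -0.32 for Pld6 and -0.47 to -0.26 for Mov10l1, ended above the interval of Piwil1, -0.66 to -0.51. The differences between these genes were not tested as such.

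Gtsf1 (chromosome 15, 103402405 to 103430470, minus strand) was the member that rose. It had 769.47 and 705.70 TPM in WT and 877.11 and 855.33 TPM in KK. The WT libraries differed from each other by more than the KK libraries did, and both lay under both KK libraries. Gtsf1 was 1.18-fold higher, with a log2 fold change of 0.24 ± 0.04 and an edgeR adjusted p of 1.6e-05. Set against its PIWI partner, the TPM ratio of Gtsf1 to Piwil1 went from 2.35 and 2.14 in WT to 4.06 and 3.77 in KK.

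Asz1 (chromosome 6, 18050964 to 18109061, minus strand), the mitochondrial anchor, had 33.27 and 35.69 TPM in WT and 30.59 and 28.64 TPM in KK. The KK libraries were the lower ones without overlap, but the difference did not pass. The log2 fold change of Asz1 was -0.14, with a 95% interval of -0.32 to 0.04 and an edgeR adjusted p of 0.195.

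The 3′ end of the piRNA is made by the products of Pnldc1 and Henmt1, and neither gene passed. Pnldc1 (chromosome 17, 12888729 to 12910230, minus strand), the trimmer, was a low member with 9.16 and 11.87 TPM in WT and 9.17 and 9.59 TPM in KK. It had 182 to 252 expected counts per library, and its genotypes overlapped. The log2 fold change of Pnldc1 was -0.02 with a 95% interval of -0.30 to 0.25, the widest among the tested members.

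Henmt1 (chromosome 3, 108939873 to 108960774, plus strand), the methyltransferase, had 68.57 and 68.40 TPM in WT and 64.96 and 60.11 TPM in KK. Both KK values were the lower ones. The log2 fold change of Henmt1 was -0.10 with a 95% interval of -0.21 to 0.02, and its edgeR adjusted p was 0.170. Henmt1 shares its locus with the predicted coding gene Gm9857 on the opposite strand, which held 61.8 to 86.03 expected counts per library. The kit does not mark strand, so reads of their shared bases cannot be told apart.

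Mael (chromosome 1, 166201201 to 166238747, minus strand) was by far the most abundant member and did not pass. It had 1568.00 and 1562.14 TPM in WT and 1575.70 and 1556.91 TPM in KK, which made it 1 of the 69 highest genes in each library. The KK libraries lay on either side of the WT libraries. The log2 fold change of Mael was 0.00486 with a 95% interval of -0.07 to 0.08. Mael passed as higher in 1 of the 15 settings, with library size scaling (log2 fold change 0.09, adjusted p of 0.0392 by edgeR, within a range of 0.0392 to 0.982). Counts of 26579 to 30612 per library make this the tightest interval among the members. Mael took 51.7% to 52.9% of the summed TPM of the members. Its ratio to Piwil1 went from 4.79 and 4.73 in WT to 7.30 and 6.87 in KK.

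The isoform tables split the members into 46 annotated transcripts, of which 25 reached 5% of their gene in at least 1 library. Their shares are estimates, and they are described here without a test. A single isoform carried 3 of the members: Piwil1-201 held 95.64% to 97.68% of Piwil1, Piwil2-201 held 96.61% to 99.55% of Piwil2 and Mael-201 held 99.07% to 99.49% of Mael. The fall of Piwil1 was that of this isoform, a coding transcript of 22 exons, from 320.09 and 319.48 TPM in WT to 206.39 and 217.80 TPM in KK.

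Pld6 fell in both of its isoforms, and their shares hardly moved. The main one, Pld6-201, is annotated as a processed transcript without a coding frame and held 78.92% to 80.88% of the gene. Pld6-202, the annotated coding transcript, went from 27.74 and 29.27 TPM in WT to 21.57 and 24.09 TPM in KK. Mov10l1 fell in its full-length coding isoform of 27 exons, Mov10l1-201, which went from 26.79 and 28.23 TPM in WT to 19.08 and 24.18 TPM in KK. Its short coding isoform Mov10l1-202 of 8 exons went from 14.34 and 12.67 TPM to 7.96 and 10.64 TPM. The similar long isoform Mov10l1-203 was put at 16.77% of the gene in KK replicate 1 and at 0% in KK replicate 2, so the split between the 2 long isoforms is not settled in these data.

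Gtsf1 was spread over several coding isoforms. Gtsf1-205 held 41.99% to 48.83% and Gtsf1-207 39.11% to 43.47% of the gene. The minor Gtsf1-203 went from 26.76 and 25.86 TPM in WT to 48.95 and 43.91 TPM in KK, and Gtsf1-201 from 28.86 and 32.39 TPM to 45.70 and 48.47 TPM. Both minor isoforms took a larger share of Gtsf1 in KK in each library. Gtsf1-205 held 48.83% and 46.82% in WT and 41.99% and 46.45% in KK. Its KK libraries differed from each other by more than the genotype means did. In Henmt1 the share of Henmt1-203 was 28.77% and 29.47% in WT and 35.06% and 42.86% in KK, and that of Henmt1-201 was 59.45% and 52.35% in WT and 49.15% and 49.80% in KK. Of the 23 isoforms of members other than Piwil4 that were described, 10 had shares that did not overlap between the genotypes. By the same rule, 29.7% of 41582 isoforms of all tested genes did not overlap. That set includes genes with a single isoform, whose share cannot separate. The 10 include both isoforms of Pld6, whose shares mirror each other. The 10 of 23 therefore cannot be read as an excess.

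**Figure D3:**
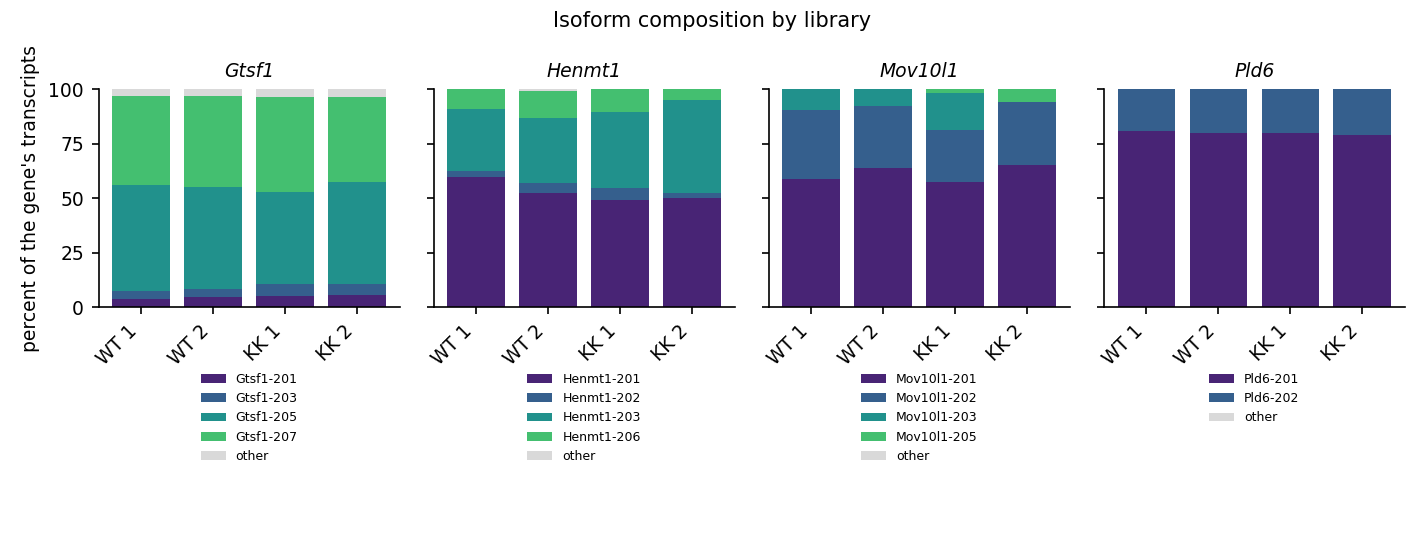
Isoform shares in percent of the gene (stacked bars, axis from 0 to 100) in the 4 libraries, for 4 members with several isoforms, with the rest in grey. Pld6 keeps nearly the same split in all libraries, Henmt1-203 is larger in both KK libraries, and Mov10l1-203 is missing in KK replicate 2.

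The rest of the piRNA pathway was followed with a list of 23 genes: tudor domain scaffolds, cofactors, transcription regulators and partners of nuclear silencing. Of these, 15 fell, 4 rose and 4 did not pass, which is 65.2% lower, against 36.9% of genes with at least 10 CPM and 21.7% of all tested genes. Of the 10 pachytene markers 70% were called lower, so a share this high was not particular to the pathway. At least 10 CPM was reached by 21 of the 23. With limma on log2 TPM at either pseudocount 9 of the 23 were called lower, where 1551 and 1549 of 16571 genes were. The median log2 fold change of the list was -0.22. The list was chosen with earlier results of these data known, and its share is a description. It holds Ddx4, and without that gene 14 of 22 fell.

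Scaffolds and helicases with tudor domains, which dock methylated PIWI proteins in germ granules, mostly fell. Tdrd5 went from 122.26 and 119.92 TPM in WT to 77.12 and 79.63 TPM in KK, and Tdrkh, the mitochondrial partner of PIWIL1 in trimming, from 38.47 and 40.05 TPM to 27.65 and 30.16 TPM. Their log2 fold changes of -0.63 ± 0.04 and -0.60 ± 0.07 were close to that of Piwil1 in counts. For Tdrkh this did not hold in TPM: its effective length was 2147.91 and 2132.35 bases in WT and 1950.63 and 1885.17 bases in KK, and with effective length as an offset its log2 fold change was -0.46, against -0.59 for Piwil1. Tdrd6 (399.11 and 395.80 TPM against 307.81 and 312.44 TPM), Tdrd9, Tdrd12 and Tdrd7 fell by less, with log2 fold changes of -0.36, -0.31, -0.31 and -0.17. Tdrd1, a partner of PIWIL2, rose slightly from 100.06 and 97.29 TPM to 107.73 and 107.65 TPM (log2 fold change 0.13 ± 0.04, adjusted p of 0.0036 by edgeR), a call that was lost in 4 of 14 alternatives, among them the fit without WT replicate 2 (adjusted p of 0.0893). Tdrd7 lost its call in both limma settings on log2 TPM.

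Rnf17, which encodes a tudor protein of the RNF17 granule, gave different answers in the 2 units. In CPM it stood at 224 and 228 in WT and at 224 and 218 in KK, with a log2 fold change of -0.03 that did not pass. In TPM it stood at 88.49 and 89.29 in WT and at 105.12 and 107.30 in KK. Its estimated effective length was 3221.60 and 3262.63 bases in WT and 2709.69 and 2589.05 bases in KK, which is the step that separates the units. With the effective length as an offset, Rnf17 had a log2 fold change of 0.24 (adjusted p of 0.0043 by edgeR, within a range of 0.0043 to 0.783 over the 15 settings).

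Other biogenesis cofactors were called lower as well in counts. The nuclease-domain gene Exd1 had a log2 fold change of -0.34, the outer mitochondrial membrane gene Gpat2 of -0.21, the arginine methyltransferase gene Prmt5 of -0.29 and its partner Wdr77 of -0.30. Adad2 and Angel2 stood at -0.31 and -0.22. Of these 6, Adad2 was called under every alternative, while Exd1, Gpat2, Prmt5, Wdr77 and Angel2 each lost the call in at least 1. Wdr77 overlapped between the genotypes in TPM, with 13.06 and 17.02 in WT and 15.43 and 11.82 in KK. With effective length as an offset, Wdr77 had a log2 fold change of -0.16 (adjusted p of 0.540 by edgeR). Angel2 had -0.15 with that offset (adjusted p of 0.166 by edgeR). Without KK replicate 2 the log2 fold changes of Wdr77 and Angel2 were -0.25 and -0.18. Without WT replicate 1 that of Angel2 was -0.20. Wdr77 and Angel2 were each called in only 9 of the 15 settings run. The cochaperone gene Fkbp6 did not pass (29.97 and 32.52 TPM in WT, 31.70 and 33.40 TPM in KK).

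Both transcription factors of the pathway were lower. Mybl1 had 33.41 and 38.11 TPM in WT and 21.40 and 26.66 TPM in KK, and a log2 fold change of -0.64 ± 0.05 (adjusted p of 5.7e-11 by edgeR). Tcfl5 was far more abundant, with 576.30 and 595.45 TPM in WT and 499.01 and 507.46 TPM in KK, and its log2 fold change was -0.22 ± 0.03 (adjusted p of 8.9e-06 by edgeR). Btbd18, a regulator of pachytene piRNA loci, had 10 to 28 counts per library and did not pass.

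The other GTSF genes rose with Gtsf1, and by more. Gtsf1l (chromosome 2) went from 166.46 and 167.15 TPM in WT to 294.77 and 268.97 TPM in KK, a 1.70-fold rise with a log2 fold change of 0.76 ± 0.05. Gtsf2, which lies next to Gtsf1 on chromosome 15, went from 83.13 and 86.30 TPM to 137.40 and 130.47 TPM, a 1.59-fold rise. The summed GTSF transcripts went from 1019.06 and 959.15 TPM in WT to 1309.28 and 1254.77 TPM in KK. Of the genes for nuclear silencing by PIWIL4, Tex15 rose from 4.24 and 4.86 TPM to 9.48 and 10.93 TPM (2.11-fold), and Spocd1 had 3.54 and 2.92 TPM in WT and 4.10 and 4.24 TPM in KK and did not pass (adjusted p of 0.0518 by edgeR, and 0.0263 without WT replicate 1).

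**Figure D4:**
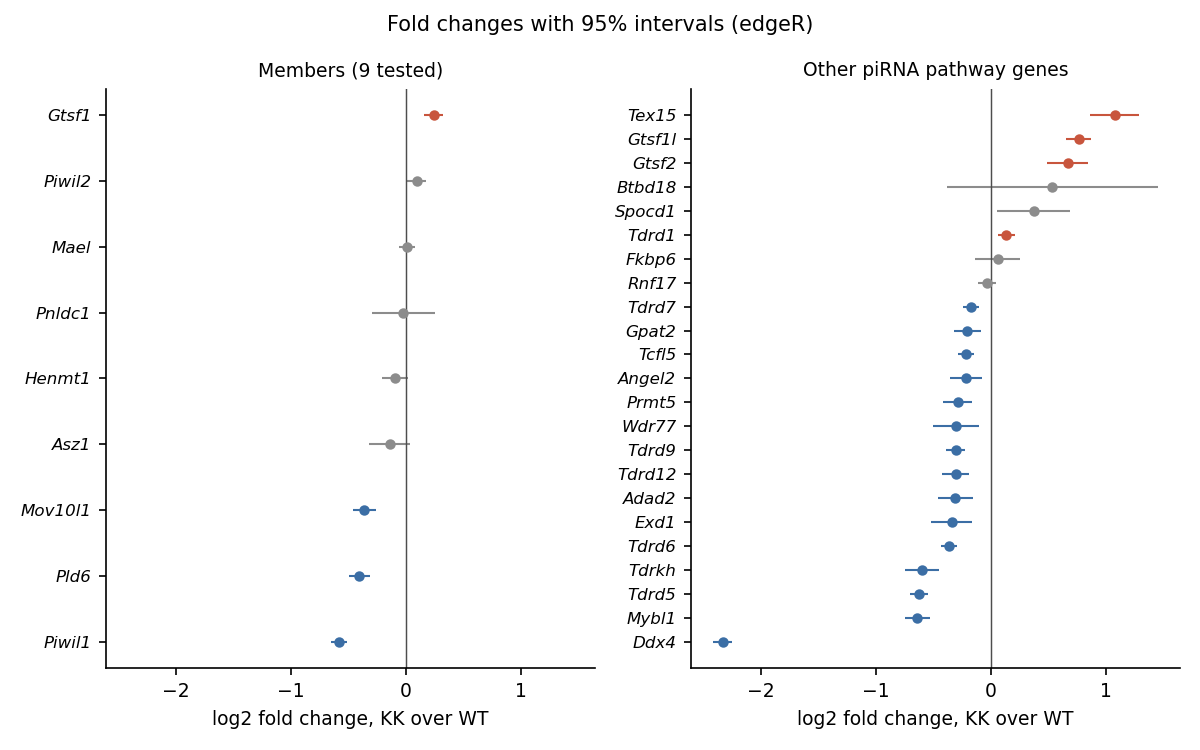
Log2 fold changes of KK over WT with 95% intervals for the 9 tested members (left) and the 23 other pathway genes (right), blue where called lower, red where called higher and grey where not called. Piwil1, Tdrd5, Tdrkh and Mybl1 lie together near -0.6, the 3 GTSF genes lie above 0, and Ddx4 lies at -2.34.

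The 3 genes outside the pathway whose TPM pattern over the 4 libraries was nearest to that of Piwil1 were Smarca2, Zfp385a and Hnrnpll, among 3493 genes with a mean of at least 50 TPM. Smarca2 had 188.80 and 190.04 TPM in WT and 124.50 and 130.13 TPM in KK. With 4 libraries in 2 groups this likeness says little more than that the fold was the same. In the same libraries, markers of other testis cells also differed. Of 14 spermatogonial markers, 13 were tested, 8 rose and 1 fell. Their summed level was 63.84 and 111.87 TPM in WT and 82.52 and 89.79 TPM in KK. The gap between the WT sums lay in Uchl1, at 17.89 and 66.22 TPM in WT and 32.00 and 32.98 TPM in KK. Uchl1 is among the 8 that rose, though its TPM overlapped between the genotypes. Of 10 Leydig markers 9 rose, from a sum of 698.05 and 735.54 to 2494.45 and 2573.63 TPM, most of it Insl3. Of 8 leptotene and zygotene markers 3 rose and 1 fell, and their sum went from 541.59 and 567.92 to 2071.96 and 2096.72 TPM. That rise lay in Tex101, which went from 311.50 and 310.74 TPM in WT to 1852.35 and 1867.62 TPM in KK. The sum thus follows 1 gene and is no measure of leptotene and zygotene cells. The marker that fell was Sycp2, from 119.17 and 130.40 TPM in WT to 96.41 and 101.80 TPM in KK. Of 10 pachytene markers 7 fell and 1 rose, with a sum of 15434.9 and 15301.8 TPM in WT and 14843.7 and 14612.2 TPM in KK. Of 12 spermatid markers 7 rose and 4 fell, with a sum of 19745.6 and 19583.8 TPM in WT and 17799.3 and 17206.6 TPM in KK. Most of that difference lay in Prm2, which went from 5432.49 and 5209.52 TPM in WT to 3642.00 and 3697.97 TPM in KK. Of 10 Sertoli markers, 8 of them tested, 1 rose and 4 fell, with sums of 106.71 to 119.25 TPM and Inhba at 0 in every library. Of 8 peritubular and endothelial markers 3 rose, and of 6 macrophage markers 1 rose, with sums under 10 TPM in every library. The part of these cells in the differences of the members was not tested.

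**Figure D5:**
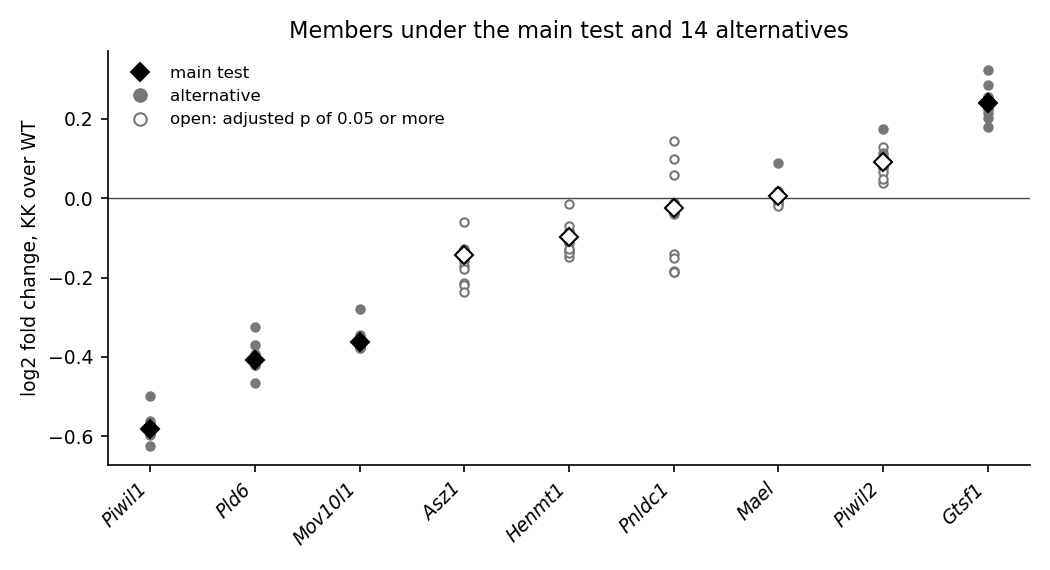
Log2 fold change of each tested member under the main test (diamonds) and 14 alternatives (circles), open where the adjusted p was 0.05 or more. Piwil1, Pld6 and Mov10l1 are below 0 and called in all 15, Gtsf1 is above 0 and called in all 15, and the values of Pnldc1 lie on both sides of 0.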

How the data were processed

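Expression was measured by RNA sequencing in 4 libraries of pachytene spermatocytes, 2 per genotype. Per the labels, total RNA went into a library kit that does not mark strand. Bowtie, mm10 and GRCm38 come from the submitters' processing notes; the sources used here do not give the quantifier or the gene annotation. The deposited gene and isoform tables hold expected counts, TPM and effective lengths, per the file headers, and for isoforms also their percent of the gene. Expected counts are the authors' estimates and were rounded here to whole numbers. The authors deposited TPM values with 1 common total in every library, corrected for effective length. Isoform percent values were taken over from the authors' tables.

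Identifiers were matched to GENCODE M21 (55104 of 55364 genes). The test ran in R 4.3.3 with edgeR 4.0.16, TMM factors, filterByExpr (16571 genes kept), a quasi-likelihood fit on genotype and adjustment over all genes. Standard errors and 95% intervals come from the F statistic. On 3 simulated data sets of 16571 genes with 200 changed genes each, 30% of 1.25-fold and 70% of 1.5-fold changes were recovered. So were 78% of 2-fold and 100% of 4-fold changes, while unchanged genes made up 5.23% of calls. In the data themselves far more genes were called, 3648 higher and 3589 lower. These rates therefore describe the simulated setting only. Alternatives were other scaling factors, DESeq2 1.42.0, limma 3.58.1 on log2(TPM + 1) and log2(TPM + 0.1), other filters, an effective length offset, a replicate block and each library left out. The members and lists were chosen with earlier results of these data known. Named were all 10 members, Ddx4, every pathway gene that passed, up to 2 markers a list and the 3 genes nearest to Piwil1 by Euclidean distance of centred log2 TPM; other pathway genes were added to account for the list. Which promoters to print was decided after the values were seen.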

Additional observations from a re-analysis of the deposited data

How the results depend on the processing

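Piwil1, Pld6, Mov10l1 and Gtsf1 kept their direction and their call under all 14 alternatives, and 3 members were lower in each of them. The number of members called higher was 3 with library size scaling, 2 with TMM factors from autosomal genes, 2 with a filter of at least 1 CPM, and 1 to 2 when each library was left out, 2 being without KK replicate 1. Values near 0 changed sign. Pnldc1 had a log2 fold change of 0.060 with library size scaling and -0.19 to 0.14 with a library left out. Mael, which passed as higher with library size scaling (0.09), had -0.0097 with DESeq2, -0.0075 without a low-count filter, -0.015 with the effective length offset and -0.020 to 0.0084 with a library left out. Rnf17 had 0.052 with library size scaling, 0.25 and 0.26 with limma on log2(TPM + 1) and log2(TPM + 0.1), and 0.24 with the effective length offset. Btbd18 had -0.040 with the effective length offset and -0.021 to 1.37 with a library left out. The number of pathway genes called lower was 9 with either limma setting; 9 of the 15 were called under every alternative. Over all genes, 2037 were called higher with DESeq2, 2275 and 2209 with limma at the larger and smaller pseudocount and 2379 with the effective length offset, and 1551, 1549 and 2283 were called lower with limma and that offset. The cause of these changes was not tested. Library size scaling moved the median of all genes to 0.09 and the share of calls that were higher to 64.2%, from 50.4%; of the genes DESeq2 called, 44.6% were higher. With the replicate block the calls numbered 3675 higher and 3634 lower over all genes, and the members' calls did not change. Deviations of same-numbered libraries had r = -0.082 across 16571 genes, so no strong effect shared by replicate number was seen. This value cannot show whether same-numbered libraries were prepared together. Depth limits Piwil4, with 2 to 4 counts per library, and Pnldc1.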
